A study of Mus musculus with 6 samples.

Results

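The proteasome genes of circulating donor CD8+ T cells from BM were examined in mice treated with GC or vehicle after BMT. The members were all gene symbols that start with Psm, then one of the letters a to g and a digit, with the inducible subunits Psmb8, Psmb9 and Psmb10 left out. This gave 48 of the 14051 genes listed, and 46 of them had values high enough to be tested. The members were picked out by symbol alone, without a cut on any value, although the proteasome was chosen as a subject with earlier results of these data known. It takes in 33 subunits of the core and its cap, 5 activators, 1 inhibitor and 7 assembly chaperones. It also takes in Psmc3ip and Psme3ip1, which are named for binding a proteasome protein and are not subunits.

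RNA-Seq was available for 3 GC-treated and 3 vehicle-treated libraries. The GC-treated B6D2F1 recipients received dexamethasone, a synthetic glucocorticoid, at 5 mg/kg/day from day -1 to day 5, and the vehicle-treated B6D2F1 recipients received its carrier, methyl β-cyclodextrin, over the same days. Both groups were transplanted with T cells from B6.CD45.1 donors. On day 5 an injected CD45 antibody stained the cells inside vessels. Stained CD8+ cells of donor type were then sorted from the combined BM of 2 to 3 mice. The methods do not state whether every library came from a pool of its own, so the spread between libraries may be partly technical. The age of the mice is not given in the sources used.

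The proteasome is the barrel-shaped protease that degrades proteins tagged with ubiquitin. Its core consists of rings of α subunits, which form the gate, and rings of β subunits, of which Psmb5, Psmb6 and Psmb7 carry the active sites. A regulatory cap has a base, with ATPases that unfold the substrate, and a lid, which removes ubiquitin. In lymphocytes, inducible subunits can replace the catalytic ones, and the peptides made feed MHC class I presentation. Cells that divide quickly, as activated T cells do, need much of this complex. When proteasome activity falls short, the transcription factor encoded by Nfe2l1 is known to raise the expression of proteasome genes through antioxidant response elements in their promoters.

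Promoter sequences are shown for Psmb5 and Psmb6, catalytic members whose promoters hold such an element, and for Psme4, the one tested member with a negative log2 fold change. Each is the 250 bases before the start site from RefSeq, build GRCm38.p6, given 5′ to 3′ on the gene's strand. Capitals mark the element, searched on both strands as TGACNNNGC, where N is any base.
Psmb5, chr14:54617996-54618245, minus strand: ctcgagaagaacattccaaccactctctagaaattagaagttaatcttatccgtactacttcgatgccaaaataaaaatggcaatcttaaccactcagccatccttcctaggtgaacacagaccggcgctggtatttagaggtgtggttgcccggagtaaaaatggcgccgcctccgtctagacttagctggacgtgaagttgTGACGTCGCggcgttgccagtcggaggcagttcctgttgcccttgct
Psmb6, chr11:70525107-70525356, plus strand: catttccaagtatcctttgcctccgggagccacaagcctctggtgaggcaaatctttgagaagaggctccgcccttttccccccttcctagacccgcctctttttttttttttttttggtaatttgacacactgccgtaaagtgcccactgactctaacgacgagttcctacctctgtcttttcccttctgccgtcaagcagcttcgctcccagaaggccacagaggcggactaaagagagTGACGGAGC
Psme4, chr11:30771525-30771774, plus strand: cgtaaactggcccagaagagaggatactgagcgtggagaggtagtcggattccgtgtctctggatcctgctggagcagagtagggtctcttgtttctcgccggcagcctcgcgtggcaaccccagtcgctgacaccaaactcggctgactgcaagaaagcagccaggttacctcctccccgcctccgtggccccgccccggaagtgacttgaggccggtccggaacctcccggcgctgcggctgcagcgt
The first base of the element lay at -47 in Psmb5 and at -9 in Psmb6. Of the 48 members, 40 had a promoter in this table. The element was found in 5 of the 40, which are Psmb5, Psmb6, Psmc6, Psmd12 and Psmd9, or 12.5%. Among all 32851 promoters of the same length it was found in 10.2%. These shares differ in unit, as a member counted when any of its promoters held the element, while the 32851 were counted per promoter. The letters alone do not show a bound site. Positive log2 fold changes were found in 45 of the 46 tested members, and Psme4 was picked for its sign. A link between the element and the direction of change was not tested.

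Values are normalized counts, the reads of a gene divided by one size factor per library. Reads on listed genes numbered 67887570 to 76888118 per GC-treated library and 60949593 to 64801008 per vehicle-treated library. The sorted cell type was checked on a list of CD8+ T cell identity genes, of which 10 of 11 were listed and none was at 0 in any library. Their summed normalized counts were 484047 to 593342 in GC-treated libraries and 485197 to 515821 in vehicle-treated libraries. Neutrophil markers, 10 of 14 listed, summed to 1840, 12746 and 8980 in GC-treated 1, 2 and 3, against 788.5, 469 and 4302 in vehicle-treated 1, 2 and 3. Of their defining genes, Mmp8 and Retnlg were at 0 in vehicle-treated 1 and 2, and Ltf was at 0 in vehicle-treated 1. Erythroid markers, 5 of 7 listed, summed to 264 to 349 in GC-treated libraries and to 376 to 771 in vehicle-treated libraries, with no overlap. Of 10 cell cycle genes, Mki67 and Top2a were lower in GC-treated libraries at an unadjusted p under 0.05 from limma, and 5 had positive values. CD4+ T cell markers summed to 4496 to 4663 in GC-treated libraries and to 4983 to 6273 in vehicle-treated libraries. The part of these other cells in the results below was not tested, and in bulk samples fewer cells of a type and less RNA per cell cannot be told apart.

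No proteasome gene passed the test for a difference between the groups, but nearly all leaned towards higher values in GC-treated libraries by small amounts. The median log2 fold change of the 46 members was 0.18, which is 1.13-fold, against -0.01 over all 11649 genes tested. It was positive for 45 of the 46 (97.8%), while 48.5% of all tested genes had a positive value. At an adjusted p under 0.05 from limma, 0 members and 0 genes were called. On recovered reads edgeR called 0 members and 0 genes, while DESeq2 called 0 members and 2 other genes, both lower. At an unadjusted p under 0.05 from limma, 10 members (21.7%) were higher in GC-treated libraries, against 247 of all tested genes, or 2.12%. This excess depended on the variance model, since limma without a variance trend gave 1 member (2.17%), Psmc3ip, against 1.98% of all genes. In the fit with the trend none was lower, against 591 of all tested genes, or 5.07%. The 3 GC-treated values all lay above the 3 vehicle-treated values in 11 members (23.9%), against 6.40% of all tested genes. Members share the same 6 libraries, so they are not independent replicates of this difference.

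**Figure D1:**
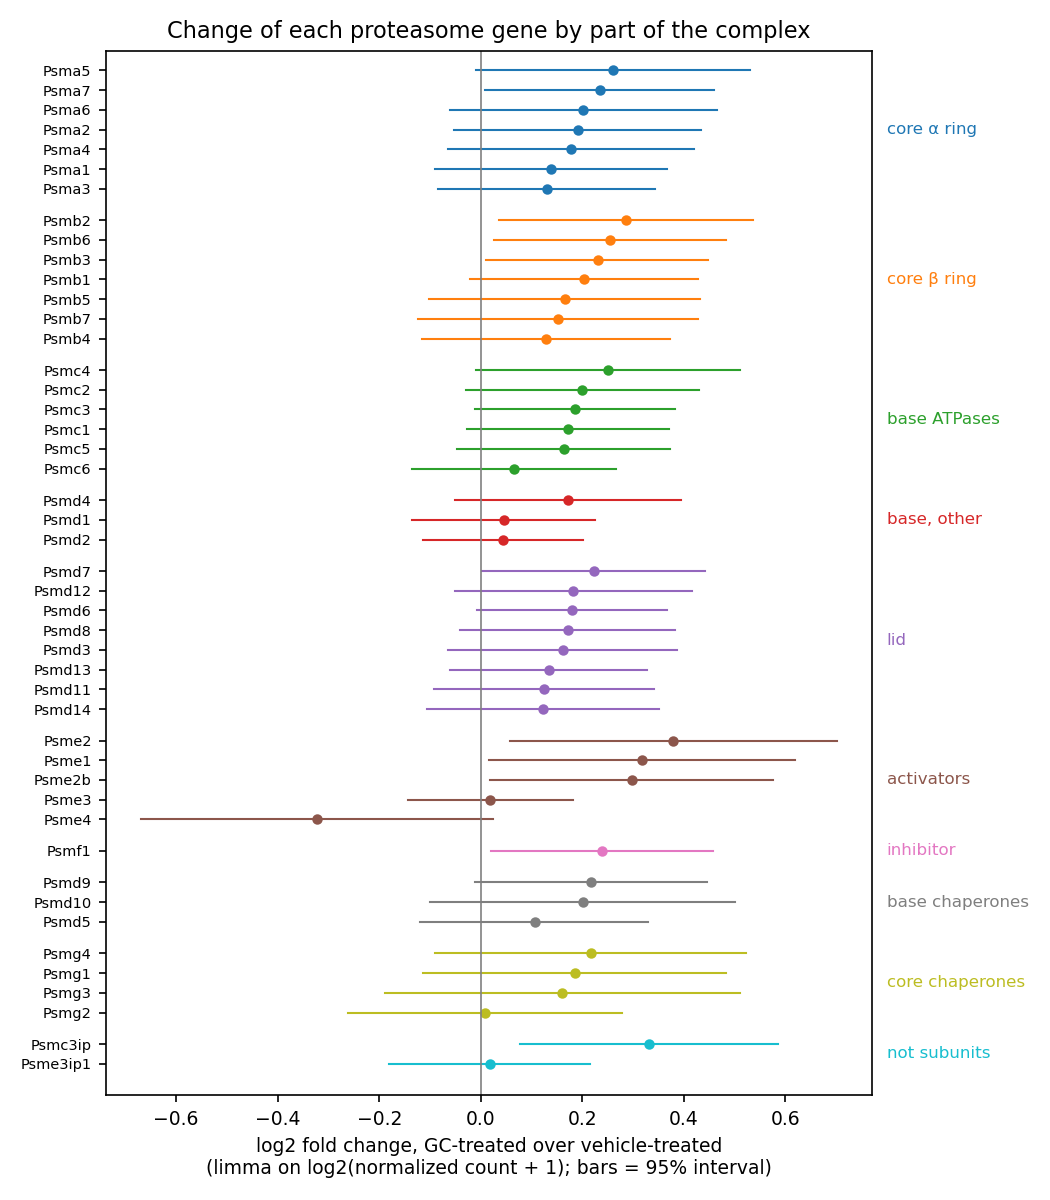
Log2 fold change (x axis, GC-treated over vehicle-treated, on log2(normalized count + 1)) of the 46 tested proteasome genes, grouped by their part in the complex. Points are limma estimates and bars are 95% intervals from 3 libraries per group. All points but that of Psme4 lie to the right of 0.

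The lean rested unevenly on the libraries. GC-treated 3 was the highest of the 6 libraries for 40 of the 46 members, and vehicle-treated 2 was the lowest for 34. Relative to each gene's mean, the median log2 deviation of the members was -0.03, 0.04 and 0.25 in GC-treated 1, 2 and 3, against -0.08, -0.17 and -0.01 in vehicle-treated 1, 2 and 3. GC-treated 1 thus lay below vehicle-treated 3, and the groups overlapped. Members took 1.18%, 1.24% and 1.40% of the reads in GC-treated 1, 2 and 3, against 1.13%, 1.08% and 1.18% in vehicle-treated 1, 2 and 3. The count of 10 members changed with every library left out. It was 24 without GC-treated 1, where 8.40% of all genes had such a p. Without GC-treated 2 it was 3, against 1.79% of all genes, and without GC-treated 3 it was 1, against 1.25%. Without vehicle-treated 1 it was 4, against 0.955% of all genes. It was 1 without vehicle-treated 2, against 0.671%, and 5 without vehicle-treated 3, against 2.24%. The member left without GC-treated 3, and also without vehicle-treated 2, was Psmc3ip. The median log2 fold change was 0.09 without GC-treated 3 and 0.24 without GC-treated 1, and 44 or 45 members had a positive value with each library left out. Of the 24 members picked by rule for values per library, 13 had a log2 fold change more than 1.5 times smaller, or reversed, without GC-treated 3. These 13 are Psma5, Psma7, Psmb1, Psmb5, Psmb6, Psmb7, Psmc1, Psmc4, Psmd4, Psmd7, Psmd8, Psmg1 and Psmg2, with Psmb5 at 0.04 and Psmd8 at 0.08. Without vehicle-treated 2 the log2 fold change was smaller by that factor, or reversed, for Psma5, Psme1 and Psmg2. Psme4, Psma8 and Psmb11 were described in addition and are not among the 24.

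**Figure D2:**
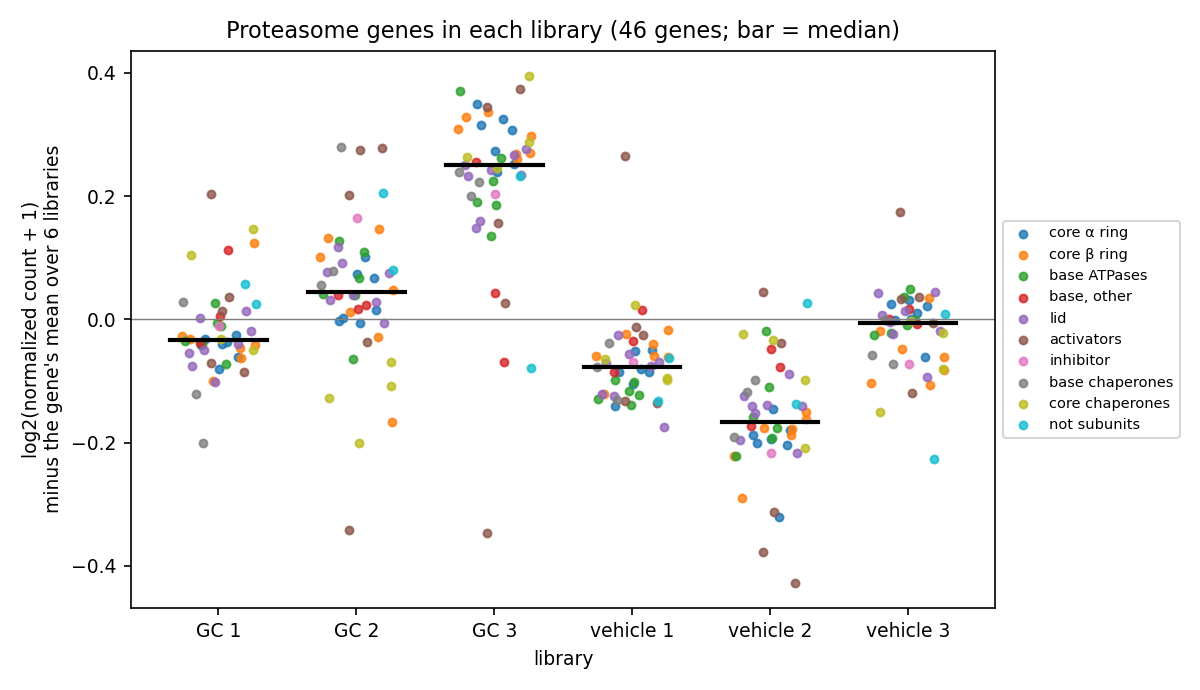
Log2 deviation of each of the 46 proteasome genes from its own mean over the 6 libraries (y axis), by library (x axis), coloured by part of the complex, with the median as a bar. GC-treated 3 has the highest median, 0.25, and vehicle-treated 2 the lowest, -0.17.

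In the α ring of the core, 7 of 8 members were tested, all 7 had positive values, and their median log2 fold change was 0.19. Psma7 had 27643, 29468 and 34834 normalized counts in GC-treated 1, 2 and 3, against 26501, 24426 and 26965 in vehicle-treated 1, 2 and 3. Its groups did not overlap, with a log2 fold change of 0.23 (SE 0.10, limma unadjusted p = 0.044). Psma5 had 17298, 19038 and 22214 in GC-treated 1, 2 and 3, against 16774, 14195 and 17868 in vehicle-treated 1, 2 and 3. GC-treated 1 lay below vehicle-treated 3 here, and the log2 fold change of 0.26 had an SE of 0.12. The other 5, Psma1, Psma2, Psma3, Psma4 and Psma6, had values from 0.13 to 0.20, all with overlapping groups. The remaining α gene is Psma8, which encodes a subunit specific to the testis, and it was near 0. It had 0, 0 and 5.51 normalized counts in GC-treated 1, 2 and 3, against 5.45, 15.1 and 0 in vehicle-treated 1, 2 and 3.

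In the β ring, all 7 tested members had positive values as well, with a median of 0.20. The catalytic members were Psmb6, which gives the caspase-like site, Psmb7, the trypsin-like site, and Psmb5, the chymotrypsin-like site. Psmb6 had 21082, 23035 and 26624 normalized counts in GC-treated 1, 2 and 3, against 20630, 18435 and 20004 in vehicle-treated 1, 2 and 3. The groups did not overlap, although GC-treated 1 and vehicle-treated 1 were close, and the log2 fold change was 0.26 (SE 0.10, limma unadjusted p = 0.032). The gene spans bases 70416183 to 70418684 of chromosome 11 in GRCm39, on the plus strand. Psmb5 had 10304, 11138 and 13942 in GC-treated 1, 2 and 3, against 10866, 9778 and 10683 in vehicle-treated 1, 2 and 3. GC-treated 1 lay below vehicle-treated 1 and 3, and the log2 fold change of 0.17 (SE 0.12) was within the spread between libraries. It spans bases 54850776 to 54855481 of chromosome 14, on the minus strand. Psmb7 had 4575, 3743 and 5061 in GC-treated 1, 2 and 3, against 4150, 3782 and 4024 in vehicle-treated 1, 2 and 3. Its groups overlapped, with GC-treated 2 the lowest of all, and the log2 fold change was 0.15 (SE 0.12). Nek6 shares 46.8% of the annotated exon bases of Psmb7, and since the library kit does not mark strand, part of the reads of Psmb7 is uncertain. A share of exon bases is not a share of reads.

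Of the β members without an active site, Psmb2 had 25355, 28386 and 32513 normalized counts in GC-treated 1, 2 and 3, against 23821, 21189 and 25578 in vehicle-treated 1, 2 and 3. GC-treated 1 lay just below vehicle-treated 3, and the log2 fold change of 0.29 (SE 0.11, limma unadjusted p = 0.030) was the largest of the core. Psmb3 had 24255, 28024 and 30358 in GC-treated 1, 2 and 3, against 24296, 22389 and 23536 in vehicle-treated 1, 2 and 3. Here too GC-treated 1 fell within the vehicle-treated range, and the log2 fold change was 0.23 (SE 0.10, limma unadjusted p = 0.041). Psmb1 had 21073, 22392 and 26634 in GC-treated 1, 2 and 3, against 20772, 19385 and 20479 in vehicle-treated 1, 2 and 3. Its groups did not overlap, but its log2 fold change of 0.20 (SE 0.10) had a limma unadjusted p of 0.071. Psmb4 had a value of 0.13. Psmb11, a member that encodes a thymic β subunit, was near 0 and was not tested. It had 0, 7.94 and 0 normalized counts in GC-treated 1, 2 and 3, against 0, 1.08 and 0 in vehicle-treated 1, 2 and 3.

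**Figure D3:**
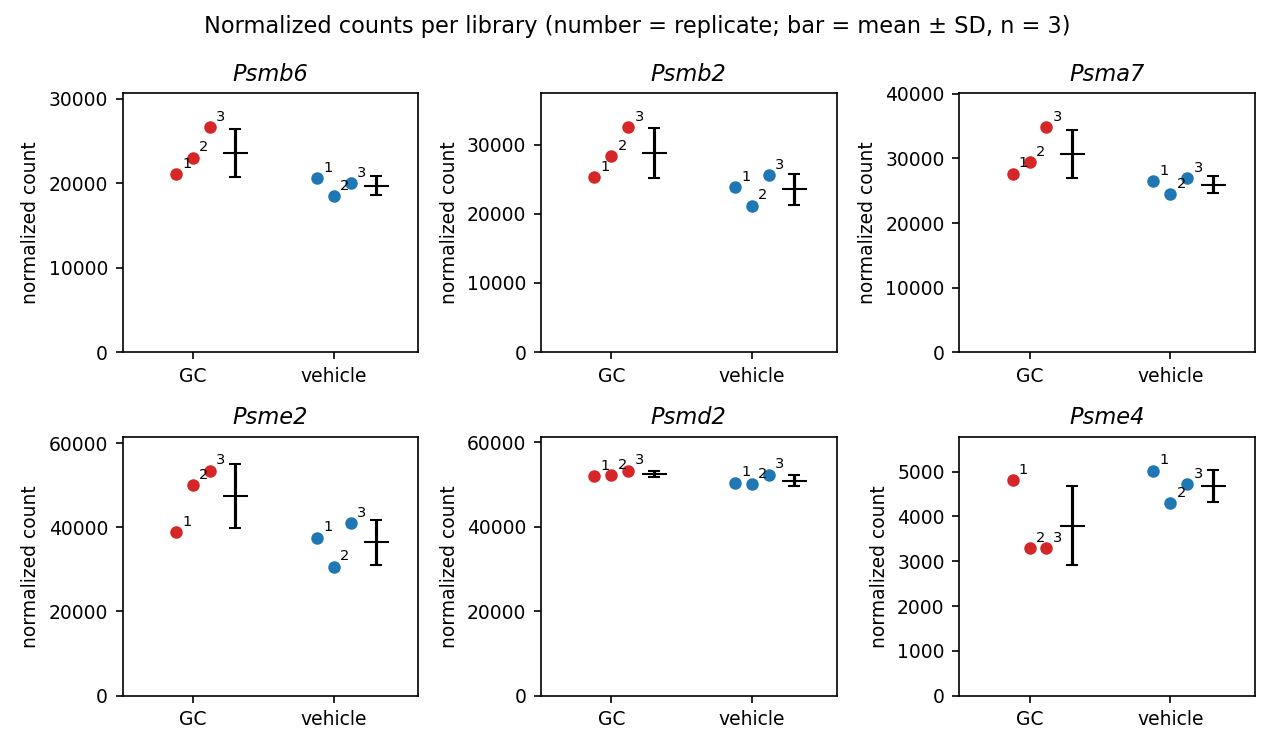
Normalized counts (y axis, from 0) of Psmb6, Psmb2, Psma7, Psme2, Psmd2 and Psme4 in each library, GC-treated left and vehicle-treated right, with replicate numbers and the mean ± SD of 3 libraries. Psmb6 and Psma7 do not overlap between the groups, Psmd2 runs from 50022 to 53268 over all libraries, and Psme4 is the member with lower values in GC-treated 2 and 3.

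The 6 ATPases of the base all had positive values, with a median of 0.18 and none at an unadjusted p under 0.05. Psmc4 had 18662, 19678 and 24713 normalized counts in GC-treated 1, 2 and 3, against 17481, 16398 and 18783 in vehicle-treated 1, 2 and 3. Its log2 fold change was 0.25 (SE 0.12), with GC-treated 3 well above the other 5 libraries. Psmc3 had 25230, 28325 and 29606 in GC-treated 1, 2 and 3, against 24210, 23232 and 25545 in vehicle-treated 1, 2 and 3. GC-treated 1 lay between vehicle-treated 1 and 3, and the log2 fold change was 0.19 (SE 0.09). Psmc1 had 24001, 24765 and 28170 in GC-treated 1, 2 and 3, against 21890, 22352 and 23960 in vehicle-treated 1, 2 and 3. The groups of Psmc1 did not overlap, although GC-treated 1 and vehicle-treated 3 were nearly equal, and the log2 fold change was 0.17 (SE 0.09). Psmc2, Psmc5 and Psmc6 had values of 0.20, 0.16 and 0.07. Smarcd2 shares 39.5% of the exon bases of Psmc5, so part of its reads is uncertain too.

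Of the remaining base subunits, Psmd1 and Psmd2 had the smallest values of the cap. Psmd2, a scaffold on which ubiquitin shuttles dock, had 51908, 52315 and 53268 normalized counts in GC-treated 1, 2 and 3, against 50478, 50022 and 52332 in vehicle-treated 1, 2 and 3. Its log2 fold change was 0.04 (SE 0.07, 95% interval -0.11 to 0.20). Psmd1, the other large scaffold, had a value of 0.05. Psmd4, a ubiquitin receptor, had 14420, 15228 and 17681 in GC-treated 1, 2 and 3, against 13953, 13135 and 14816 in vehicle-treated 1, 2 and 3. GC-treated 3 again stood highest, and the log2 fold change was 0.17 (SE 0.10) with overlapping groups.

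In the lid, 8 of 8 members had positive values between 0.12 and 0.22, with a median of 0.17. Psmd7, the partner of the lid's deubiquitinase Psmd14, had 16639, 17767 and 20439 normalized counts in GC-treated 1, 2 and 3, against 14941, 15293 and 16650 in vehicle-treated 1, 2 and 3. GC-treated 1 and vehicle-treated 3 were nearly equal, and the log2 fold change was 0.22 (SE 0.10, limma unadjusted p = 0.047). Psmd6, a structural lid subunit, had 13882, 15030 and 15358 in GC-treated 1, 2 and 3, against 12704, 12559 and 13818 in vehicle-treated 1, 2 and 3. Its groups did not overlap, with a log2 fold change of 0.18 (SE 0.08). Psmd8, the last subunit to join the lid in yeast, had 18412, 19321 and 22787 in GC-treated 1, 2 and 3, against 17956, 17814 and 17754 in vehicle-treated 1, 2 and 3. Here the vehicle-treated libraries lay close together and all below the GC-treated ones, with a log2 fold change of 0.17 (SE 0.09). Psmd14 itself had a value of 0.12, and Psmd3, Psmd11, Psmd12 and Psmd13 had 0.16, 0.13, 0.18 and 0.13. Other genes share 41.2% of the exon bases of Psmd13, so part of its reads is uncertain.

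The activators, which open the core in place of the cap, held both the largest positive value of all members and the one negative value. Psme1 and Psme2 encode the interferon-inducible activator that is linked to antigen processing. Psme2 had 38854, 49998 and 53414 normalized counts in GC-treated 1, 2 and 3, against 37513, 30639 and 41037 in vehicle-treated 1, 2 and 3. GC-treated 1 lay within the vehicle-treated range, while GC-treated 2 and 3 lay above it, and the log2 fold change was 0.38 (SE 0.14, limma unadjusted p = 0.026). Psme1 had 28001, 33828 and 37319 in GC-treated 1, 2 and 3, against 26838, 22628 and 30082 in vehicle-treated 1, 2 and 3. The libraries stood in the same order as for Psme2, with a log2 fold change of 0.32 (SE 0.13, limma unadjusted p = 0.040). These genes are neighbours on chromosome 14 of GRCm39, with Psme1 from 55815190 to 55822034 on the plus strand and Psme2 from 55824895 to 55829173 on the minus strand. Other genes share 39.6% of the exon bases of Psme1 and 30.8% of those of Psme2, so part of the reads of both is uncertain.

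Psme2b, a near-identical copy of Psme2, had 2139, 2564 and 2363 normalized counts in GC-treated 1, 2 and 3, against 2099, 1706 and 1950 in vehicle-treated 1, 2 and 3. Its groups did not overlap, with a log2 fold change of 0.30 (SE 0.12, limma unadjusted p = 0.039). Its transcript is 99.4% identical to that of Psme2 over 795 bases, so its reads may belong to Psme2 and it is no separate line of evidence. Psme3, the nuclear activator, had a log2 fold change of 0.02 (95% interval -0.14 to 0.18). Psme4, which encodes a large nuclear activator and is described here because of its sign, had 4805, 3296 and 3284 normalized counts in GC-treated 1, 2 and 3, against 5017, 4302 and 4713 in vehicle-treated 1, 2 and 3. GC-treated 1 fell among the vehicle-treated libraries and GC-treated 2 and 3 lay below all 3, with a log2 fold change of -0.32 (SE 0.15, limma unadjusted p = 0.065). Without GC-treated 1 it was -0.51, with a limma unadjusted p under 0.05. In that fit 1414 of the 11501 genes tested were lower at such a p. Without GC-treated 3 the value of Psme4 was -0.23, with no such p. With the length trend described below removed, it was -0.17 (limma unadjusted p = 0.2).

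Psmf1, which encodes an inhibitor of the core, had 5344, 6027 and 6197 normalized counts in GC-treated 1, 2 and 3, against 5129, 4632 and 5113 in vehicle-treated 1, 2 and 3. Its groups did not overlap, with a log2 fold change of 0.24 (SE 0.10, limma unadjusted p = 0.036). Among the 7 assembly chaperones all values were positive, with a median of 0.18 and none at an unadjusted p under 0.05. Psmd9, a chaperone of the base, had 3502, 3567 and 4050 in GC-treated 1, 2 and 3, against 3253, 3005 and 3299 in vehicle-treated 1, 2 and 3. It did not overlap between the groups, and the log2 fold change was 0.22 (SE 0.10). Psmg1, which helps to build the α ring, had 3695, 3643 and 5027 in GC-treated 1, 2 and 3, against 3572, 3570 and 3614 in vehicle-treated 1, 2 and 3. The groups did not overlap here either, but the log2 fold change of 0.19 (SE 0.13) rested mostly on GC-treated 3 and was 0.03 without it. Psmg2, the partner of Psmg1, had 4745, 4224 and 5751 in GC-treated 1, 2 and 3, against 4935, 4739 and 4844 in vehicle-treated 1, 2 and 3. Its log2 fold change was 0.01 (95% interval -0.26 to 0.28), and the sign turned to -0.11 without GC-treated 3 and to -0.01 without vehicle-treated 2. Psmd5, Psmd10, Psmg3 and Psmg4 had values of 0.11, 0.20, 0.16 and 0.22.

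Of the genes that are not subunits, Psme3ip1 had a log2 fold change of 0.02 (95% interval -0.18 to 0.22). Psmc3ip, a partner of the meiotic recombinases, had 1543, 1711 and 1743 normalized counts in GC-treated 1, 2 and 3, against 1352, 1347 and 1268 in vehicle-treated 1, 2 and 3. Its groups did not overlap, and its log2 fold change of 0.33 (SE 0.11, limma unadjusted p = 0.016) had the smallest p of the 46 members. Mlx shares 38.1% of its exon bases, so part of its reads is uncertain. The adjusted p from limma was 0.62 for each of the 10 members with an unadjusted p under 0.05. For subunits of the core and cap alone, 31 of 31 tested had positive values, against 48.5% of all genes, with a median of 0.17. In these 31, 5 were higher at an unadjusted p under 0.05, against 2.12% of all genes.

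Levels were compared between members per kilobase of annotated exons, as means over the 6 libraries. Psme2 was the highest, at 17650 normalized counts per kb, followed by Psmd2 at 10230 and Psmb6 at 9861. Among tested members Psmg3 was the lowest, at 210 per kb. Tested subunits of the core and cap ranged from 701 per kb for Psmb7 to 10230 for Psmd2. The activator Psme4 was far lower than Psme3, at 483 against 5771 per kb. These levels depend on which transcripts are counted as the gene's length, since the annotation lists long transcripts for some members. Measured on the canonical transcript, Psme2 was still the highest, at 43430, but Psmb3 came next at 32920 and Psmb7 stood at 3640. Psmd2 and Psmb3 have near copies in the annotation, at least 95% identical over 300 bases or more. So have Psma3, Psma4, Psma5, Psmb5, Psmc1 and Psmd11, and part of the reads of all of these is uncertain.

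The inducible subunits, which the selection left out, were set beside the catalytic members they replace. Psmb8 had 28729, 36558 and 41109 normalized counts in GC-treated 1, 2 and 3, against 27472, 23933 and 29180 in vehicle-treated 1, 2 and 3. The log2 fold change was 0.39 (SE 0.14, limma unadjusted p = 0.018), and it was 0.21 (SE 0.11) for Psmb9 and 0.33 (SE 0.15) for Psmb10. The ratio of Psmb8 to Psmb5 was 2.79, 3.28 and 2.95 in GC-treated 1, 2 and 3, against 2.53, 2.45 and 2.73 in vehicle-treated 1, 2 and 3. This ratio did not overlap between the groups (two-sided exact permutation p = 0.1, the smallest that 3 against 3 libraries can give; Benjamini-Hochberg adjusted exact p = 0.3 over 3 ratios). The ratio of Psmb9 to Psmb6 was 1.19, 1.29 and 1.20 in GC-treated 1, 2 and 3, against 1.23, 1.22 and 1.33 in vehicle-treated 1, 2 and 3 (exact permutation p = 0.5, adjusted 0.5). The ratio of Psmb10 to Psmb7 was 3.87, 5.91 and 5.08 in GC-treated 1, 2 and 3, against 4.31, 3.82 and 4.92 in vehicle-treated 1, 2 and 3 (exact permutation p = 0.4, adjusted 0.5). Both of these ratios overlapped between the groups. The ratios are of normalized counts and do not give molar amounts.

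**Figure D4:**
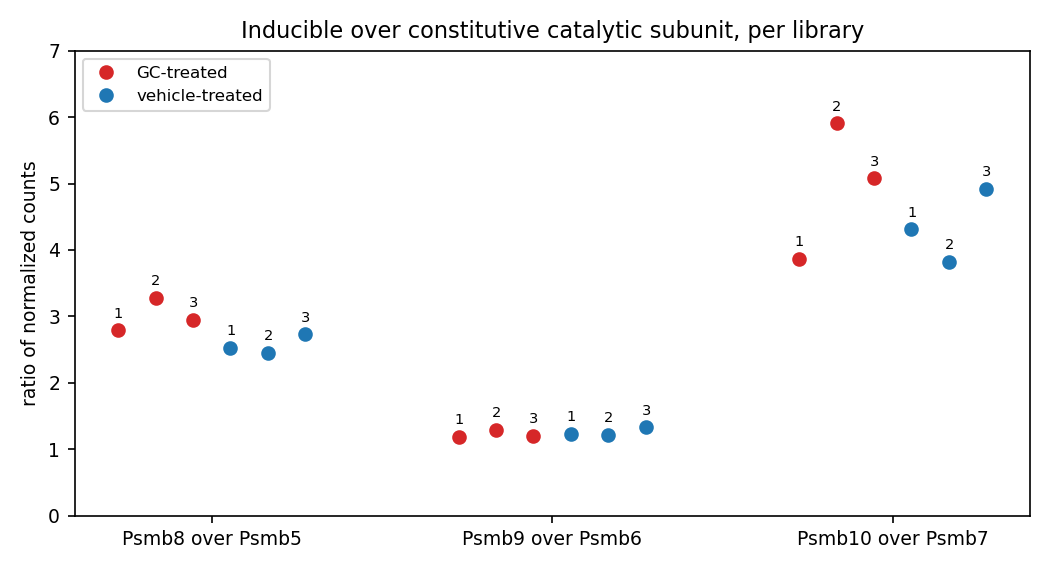
Ratio of the normalized counts of an inducible to its constitutive catalytic subunit (y axis, from 0) in each library, by pair (x axis), with replicate numbers. Psmb8 over Psmb5 is 2.79 to 3.28 in GC-treated and 2.45 to 2.73 in vehicle-treated libraries, while the other pairs overlap.

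Genes around the proteasome had values in both directions, but several of the negative ones turned positive once the length trend described below was removed. Among other parts and partners of the complex, 9 of 11 were tested, with 5 positive and 4 negative values and a median of 0.07. Adrm1, a ubiquitin receptor of the base, had a log2 fold change of 0.28 (SE 0.10, limma unadjusted p = 0.024), and Pomp, which guides assembly of the core, had 0.22 (SE 0.10). Ecpas, a scaffold that binds proteasomes, had -0.14 (SE 0.12), and 0.07 with the length trend removed. In that setting 8 of the 9 were positive. Among 8 genes that control proteasome expression, 5 had positive and 3 negative values, with a median of 0.06 and none at an unadjusted p under 0.05. Nfe2l1, the factor named above, had 6944, 6200 and 5390 normalized counts in GC-treated 1, 2 and 3, against 5729, 5307 and 6622 in vehicle-treated 1, 2 and 3. Its groups overlapped, and its log2 fold change was 0.07 (SE 0.12), or -0.02 without GC-treated 1. Ddi2, the protease that activates the Nfe2l1 protein, had -0.20 (SE 0.14), and 0.07 with the length trend removed. Myc had 0.20 (SE 0.11), and 6 of the 8 were positive with the trend removed.

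Of 13 genes for ubiquitin, its activating enzymes and its shuttles, 8 had positive and 5 negative values, with a median of 0.06. Ufd1, a substrate adaptor of the ATPase Vcp, had 0.26 (SE 0.10, limma unadjusted p = 0.023). Uba6, an alternative ubiquitin-activating enzyme, had 4470, 3972 and 2952 normalized counts in GC-treated 1, 2 and 3, against 4928, 4724 and 4572 in vehicle-treated 1, 2 and 3. All GC-treated values lay below the vehicle-treated ones, with a log2 fold change of -0.34 (SE 0.15, limma unadjusted p = 0.045). It was -0.19 (limma unadjusted p = 0.072) with the length trend removed and -0.17 without GC-treated 3. The ubiquitin gene Ubb had 0.21 (SE 0.10), and 9 of the 13 were positive with the length trend removed. Of 7 genes for peptide transport and loading onto MHC class I, 6 had positive values, with a median of 0.15 and none at an unadjusted p under 0.05. Calr, Tapbp and Tap2 had 0.15, 0.23 and 0.17 there, and all 7 were positive with the length trend removed.

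The fold changes of all genes followed transcript length, and the members were read against this. Spearman's rho between canonical transcript length and log2 fold change was -0.35 over the 46 members and -0.36 over the 11404 tested genes with a length. It was -0.52 over the 7081 of these with a mean of at least 1000 normalized counts. These are descriptions across genes that share the same libraries. Among these 7081, genes with transcripts of up to 1000 bases had a median of 0.13 and those over 4000 bases had -0.10. From over 1000 to 2000 bases the median was 0.18 for 20 members and 0.12 for all such genes, of which 81.1% were positive. From over 2000 to 4000 bases it was 0.15 for 14 members and 0.03 for all such genes. Over 4000 bases it was 0.15 for 6 members, one of them Psme4. The longest of these, Psme4, Psmb1 and others, are given by the annotation, and which transcripts these cells made was not measured.

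When the length trend was taken out of each library, a step added after the data were seen, 44 of the 46 members had positive values, against 50.2% of all genes, and the median was 0.11 against 0.00 over all genes. Psme4 and Psmg2 had the negative ones, at -0.17 and -0.09. The step subtracts from each library the median deviation of genes of similar length. The 50.2% and the 0.00 over all genes therefore largely follow from the step itself. With the trend removed 4 members, Psmf1, Psmb2, Psme1 and Psmb1, had a limma unadjusted p under 0.05, against 2.88% of all genes, and 0 were called after adjustment. The members' median deviation in GC-treated 3 was 0.10 in this setting, against 0.25 without it. Mitochondrial genes took 0.902%, 0.400% and 0.615% of reads in GC-treated 1, 2 and 3, against 0.910%, 1.13% and 0.757% in vehicle-treated 1, 2 and 3. The part of RNA quality in the members' values was not tested.

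**Figure D5:**
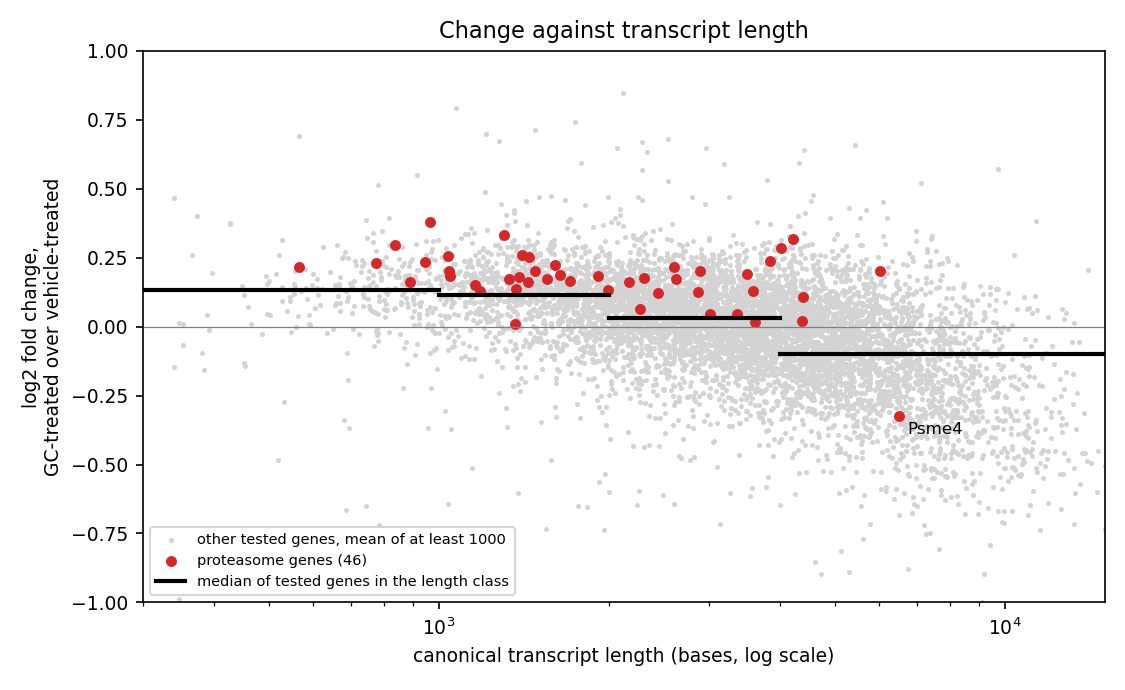
Log2 fold change (y axis, GC-treated over vehicle-treated, shown from -1 to 1) against canonical transcript length (x axis, log scale), for the 46 proteasome genes in red and other tested genes with a mean of at least 1000 in grey. Black bars are the median of all such genes in 4 length classes, from 0.13 up to 1000 bases to -0.10 over 4000 bases, and 43 of 46 members lie above the bar of their class.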

How the data were processed

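Bulk RNA-Seq of sorted circulating donor CD8+ T cells was analysed in 3 GC-treated and 3 vehicle-treated libraries, grouped by the sample labels alone. Libraries were prepared with SMART v4 and Nextera XT, which do not mark strand. The authors aligned reads with STAR to GRCm39 (Gencode M26), counted them with summarizeOverlaps and ran DESeq2 and ashr; the processing notes name bcl2fastq, STAR and DESeq2 without versions. What the authors deposited is a normalized signal, the reads of each gene divided by a size factor per library. All values were whole multiples of the lowest value of their column within 0.001 of a read, so reads were recovered; for GC-treated 2 this multiple is so near 1 that an automatic check could not judge it. The column totals give the depth, which limits precision most for the lowest genes.

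The 11649 genes that reached 10 in 3 or more libraries were tested with limma 3.58.1 in R 4.3.3 on log2(value + 1), with a variance trend over the mean and Benjamini-Hochberg adjustment at 0.05; fold changes are on that scale. The ratios used a two-sided exact permutation test over libraries. Alternatives were edgeR 4.0.16 and DESeq2 1.42.0 on recovered reads, other pseudocounts, filters and scaling, a block for the replicate number, and fits without single libraries. Removal of the length trend (median deviation in 20 bins of canonical transcript length) and levels per canonical transcript were added after the data were seen. The tests were tested on simulated data. Lengths, overlaps and coordinates are from Gencode M39 on GRCm39, which is later than the authors' annotation and holds 13727 of the 14051 symbols.

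The proteasome genes as a subject, and the gene lists, were chosen with earlier results of these data known; the members themselves follow from their symbols. Values per library are given for the catalytic members, for the member of smallest p and of highest level in each class, for members at an unadjusted p under 0.05 and for those whose groups did not overlap. Up to 3 genes of smallest p were named from each list outside the members, and all inducible subunits. Psme4, Nfe2l1 and the 2 members that were not tested were described in addition, chosen after their values were seen. Replicates were distinct libraries, as every pair differed by more than counting noise. The measure was a chi-square per gene between 2 libraries. By it, GC-treated 1 was nearer to vehicle-treated 1, 2 and 3, at 21.4, 36.2 and 32.1, than to GC-treated 2 and 3, at 106 and 152. The cause of this was not tested.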

Additional observations from a re-analysis of the deposited data

How the results depend on the processing

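No member was called at an adjusted p under 0.05 under any alternative run. The median log2 fold change of the members stayed positive throughout, from 0.09 to 0.24 with single libraries left out and at 0.11 with the length trend removed, and 44 to 46 of the 46 or 48 members fitted had positive values. The count of 10 members at an unadjusted p under 0.05 was 1 by limma without a trend (Psmc3ip), where 1.98% of all genes had such a p, 4 with the length trend removed, 12 by DESeq2, where 2.41% did, and 1 to 24 with single libraries left out. The count of 0 lower members was 1 with the replicate number as a block, where 745 of all genes were lower at a limma unadjusted p under 0.05. It was 0 to 1 with single libraries left out, the 1 being without GC-treated 1, where 1414 of all genes were lower. The member was Psme4 in both. Psmg2 reversed, to -0.007 without vehicle-treated 2, to -0.112 without GC-treated 3 and to -0.091 with the length trend removed. Over all genes, 0 were called lower by limma, 1 by limma without a trend, 2 by DESeq2 and 0 to 43 with single libraries left out, and 0 to 2 were called higher with single libraries left out. Genes at an unadjusted p under 0.05 and lower numbered 591, or 329 by limma without a trend and 190 to 1414 with single libraries left out. The cause of these shifts was not tested. The methods do not state whether libraries with the same replicate number belong together. The correlations of same-numbered deviations were 0.063, -0.135 and 0.129, which cannot settle this with 3 libraries per group. The replicate block gave 9 members higher at a limma unadjusted p under 0.05, against 2.04% of all genes. In it Psma5 and Psmc4 were added and Psmb3, Psme2b and Psmf1 were lost. The highest level per kb, that of Psme2, was 26340 by the longest and 43430 by the canonical transcript.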
